A study of Drosophila melanogaster with 47 samples.

Results

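The flies described here were *tim_in24*, a CRISPR strain that lacks the E-box in an intron of the clock gene *timeless* (*tim*), and the control strain *yw*. Libraries were chosen by their genotype label alone, with no measured value. The label *tim_in24* was on 6 libraries, 1 at each of ZT2, ZT6, ZT10, ZT14, ZT18 and ZT22 (ZT, hours since lights on), and the label *yw* on 11, with 1 at ZT18 and 2 at every other time point. These 17 libraries are part of a series of 47, and the other 30 came from 3 strains with deletions upstream of *tim*, named *tim_up10*, *tim_up122* and *tim_up126*. All flies, controls included, were kept for 4 days in 12 h of light and 12 h of dark at 25 °C, and polyadenylated RNA of the heads of males and females was sequenced. *tim_in24* was made by embryo injection of a single guide RNA and kept as a homozygous second chromosome. The strain that received the injection is not given in the sources used here, so the deletion and any other difference between the *tim_in24* and *yw* stocks cannot be told apart.

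The *tim* protein, with PER, holds back the factors CLK and CYC, which bind E-boxes in *tim* and in other genes and so close a daily loop. Outside that loop, a fly head holds the brain, the compound eyes, the antennae with their odour-sensing organs, muscle, cuticle and a layer of fat body. The fat body stores lipid, clears toxic compounds and secretes antimicrobial peptides, and much of its expression follows food, infection and strain. The question put to the data was which of these gene functions differed between the strains when averaged over the day.

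Library totals ran from 3793649 to 6281309 counts in *tim_in24* and from 3902323 to 10230355 in *yw*. *yw* ZT18 replicate 1 and *yw* ZT22 replicate 1 were close to identical, with a chi-square of 1.21 per degree of freedom over 10211 genes, whereas the 17 pairs of libraries of the same strain and time point ran from 5.30 to 12.5. Summed markers of the gut were at 0 to 0.814 CPM (counts scaled to the normalized library size) in *tim_in24* and reached 163 CPM in *yw* ZT14 replicate 2 and 19.1 CPM in *yw* ZT2 replicate 2. *CG34220*, not among these markers and named after its values were seen, had 715 and 122 CPM in those libraries. It had 995, 965 and 141 CPM in *yw* ZT18 replicate 1 and *yw* ZT22 replicates 1 and 2, and at most 2.01 CPM in *tim_in24*. Without *yw* ZT22 replicate 1, the counts of called genes given in the next paragraph were 1345 higher and 1288 lower. Without that library and the pair with gut markers they were 1177 and 1132. *yw* ZT18 replicate 1, the only *yw* library of its time point, stayed in that fit. *tim* itself had a lowest, median and highest level of 207, 777 and 1417 CPM in *tim_in24* and 110, 928 and 1936 CPM in *yw*, a log2 fold change of -0.06 ± 0.15 (SE; adjusted p = 0.842). This messenger does not check the label, since the deletion lies in an intron. Defining markers of neurons, glia and photoreceptors were present in all 17 libraries, at summed levels of 2978 to 4680, 2093 to 2695 and 34928 to 57892 CPM.

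Genes across many functions differed between the strains. Of 11027 genes tested, 2808 (25.5%) had an adjusted p under 0.05 and are called here, 1361 higher in *tim_in24* (12.3%) and 1447 lower (13.1%). Most differences were small: the median absolute log2 fold change of the called genes was 0.42, and 1654 of them were under 0.5. At least 2-fold differences were found in 198 called genes that were higher (1.8%) and 309 that were lower (2.8%). The ranges of the 6 *tim_in24* and 11 *yw* libraries did not overlap for 768 genes (6.96%), of which 419 were higher (3.8%) and 349 lower (3.16%). With 1 *tim_in24* library per time point, the spread within *tim_in24* does not enter these tests, which draw it from the other strains. Where it does enter, in an additive model of strain and time point over the 17 libraries, 1546 genes were higher and 1377 lower.

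Chromosome 2, which carries *tim*, held a larger share of called genes than the others. On arm 2L 31.0% of 1977 genes were called and on arm 2R 30.7% of 2300, against 22.9% on 3L, 20.7% on 3R, 22.8% on X and 28.3% of 92 genes on 4. Within 1 Mb of *tim*, 35 of 194 genes were higher and 36 lower (36.6%), and beyond 10 Mb on the same arm 31.1% were called.

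**Figure D1:**
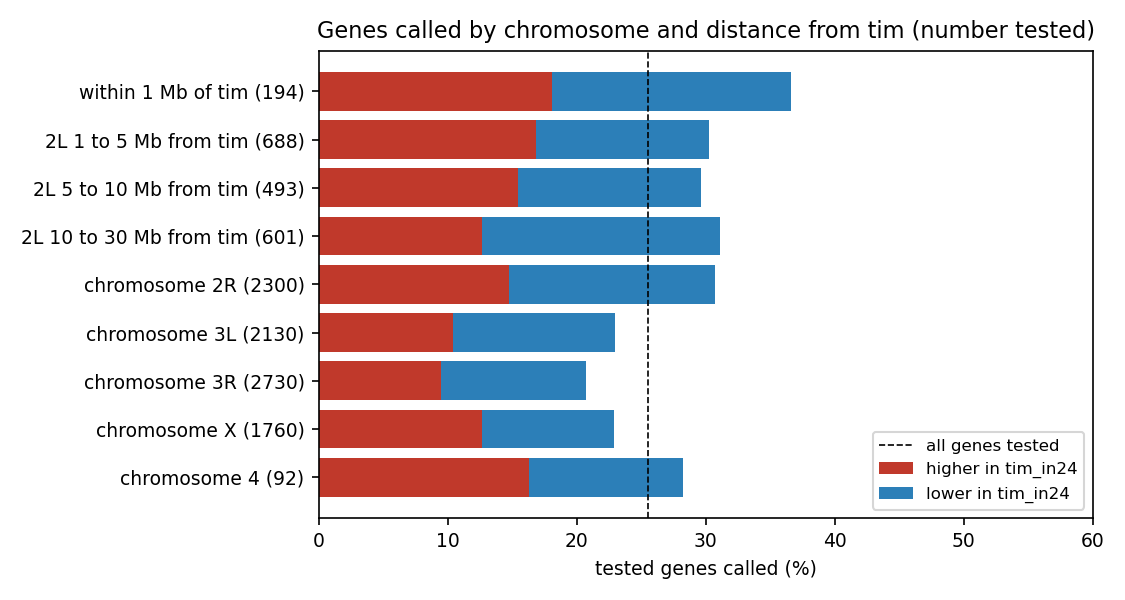
Share of tested genes called higher (red) or lower (blue) in *tim_in24* than in *yw*, in percent, by chromosome and, on arm 2L, by distance from *tim*; the dashed line marks all genes tested. The share was 36.6% within 1 Mb of *tim* and 20.7% on 3R.

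A run of 5 neighbouring genes next to *tim* was higher in *tim_in24*. On the dm6 genome *tim* (FBgn0014396) lies on the minus strand of 2L, from 3493986 to 3508119, and the 5 genes lie beyond its start. The nearest is *CG8851* (FBgn0031546), 11.6 kb away, at 21.0, 38.8 and 46.8 CPM (lowest, median and highest) in *tim_in24* and at 0, 0 and 0.366 CPM in *yw*. Its counts summed to 1030 in *tim_in24* and 5 in *yw*, and the ratio of pooled CPM was 531 (95% exact counting interval 227 to 1638). *Sr-CIV*, which overlaps *CG8851* by 35 bases and encodes a scavenger receptor, a surface protein that binds microbial and modified ligands, had 15.5, 19.3 and 24.4 CPM in *tim_in24* and 0, 0.0999 and 0.466 CPM in *yw*. No *yw* library came near a *tim_in24* library for either gene. *CG8852* had a log2 fold change of 2.94 ± 0.10, *Spindly*, which links the motor protein dynein to dividing chromosomes, one of 1.79 ± 0.17, and *IFT57*, a part of the transport machinery of cilia, one of 3.48 ± 0.15 (adjusted p = 1.72e-17, 1.05e-08 and 6.71e-15). In the opposite direction, *CG16704*, 184 kb away, had a log2 fold change of -2.23 ± 0.14. The 3 upstream strains had *CG8851* at medians of 40.0, 39.9 and 44.0 CPM, and *tim_in24* minus the mean of these strains was -0.17 on the log2 scale (adjusted p = 0.253), a contrast that uses no *yw* library.

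The 5 genes with the smallest p values were *Cyp6a17*, which is described with its family, *CG14024*, *CG13124*, *CG13794* and *Ady43A*. *CG14024* had 133, 138 and 143 CPM in *tim_in24* and 26.0, 28.6 and 32.0 CPM in *yw* (log2 fold change 2.28 ± 0.05, adjusted p = 8.33e-21). *CG13124* had 55.4, 57.1 and 59.5 CPM in *tim_in24* and 254, 260 and 281 CPM in *yw* (-2.20 ± 0.05, adjusted p = 1.07e-20). The spread within a strain was thus a small part of the gap between them for both genes. *CG13794* (3.63 ± 0.10) and *Ady43A* (2.03 ± 0.06), which encodes a protein of the adenosine kinase family, were higher.

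*mthl8*, a member of the methuselah-like family of receptors, had 47.8, 62.1 and 71.8 CPM in *tim_in24*. In *yw* a single count was seen over all 11 libraries, so the ratio of pooled CPM of 4546 carries a counting interval of 815 to 179665. *phu* had 545, 1188 and 1392 CPM in *tim_in24* and 7.46, 23.2 and 130 CPM in *yw*, with the 2 highest *yw* values at ZT2 (5.44 ± 0.49, adjusted p = 5.73e-09). Among genes of the germline piRNA pathway, which silences transposons, *tej* was higher (3.90 ± 0.16, adjusted p = 2.19e-15) at 8.96, 11.1 and 13.5 CPM against 0.242, 0.61 and 1.12 CPM. *SoYb*, of the same pathway, had a single count in *tim_in24* against 191 counts in *yw* (ratio 74.2, interval 13.2 to 2944). *aurB*, a kinase of cell division, also had a single count in *tim_in24* against 236 (ratio 91.6, interval 16.3 to 3634). DESeq2 did not call *aurB* (adjusted p = 0.395). Summed ovary markers were at 0.76 to 2.2 CPM in *tim_in24* and 1.45 to 3.52 CPM in *yw*, and their part in these values was not tested. *Vha100-5*, a subunit of the proton pump of vesicles, summed to 98 counts in *tim_in24* and 14 in *yw* (ratio 18, interval 10.2 to 34.2), and was not called by DESeq2 (adjusted p = 0.0946).

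Set beside the other strains, these genes fell into different patterns, which the plot of 8 genes by strain shows. *CG13124* differed from the 3 upstream strains by -2.13 and *Vha100-5* by 6.0 (adjusted p = 1.55e-20 and 1.14e-05), with *CG13124* at 225 to 267 CPM in all 30 upstream libraries. *phu* was 3.20 above the mean of those strains and *mthl8* 2.35 above, with *mthl8* at 50.04 to 72.9 CPM in *tim_up122* and at 0 to 8.81 CPM in *tim_up10*. *CG14024*, *CG13794* and *Ady43A* had differences from the upstream mean of -0.05, -0.07 and -0.06, none of them called. Over all genes this contrast called 1082 genes (9.81%), 584 higher (5.3%) and 498 lower (4.52%). *CG4970* and *Muc30E*, a mucin, had differences of 6.14 and 4.34 from the upstream mean, among the highest of it, at 2.32 to 4.56 and 1.27 to 4.05 CPM in *tim_in24*. *CG4970* was at most 1.08 CPM in *yw* and 0.43 CPM upstream, so it passed the filter on low counts through *tim_in24* alone. *Muc30E* and *Vha100-5* summed to 19 and 14 counts in *yw*. For genes this near 0 outside *tim_in24*, the size and adjusted p of the difference add no separate support.

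**Figure D2:**
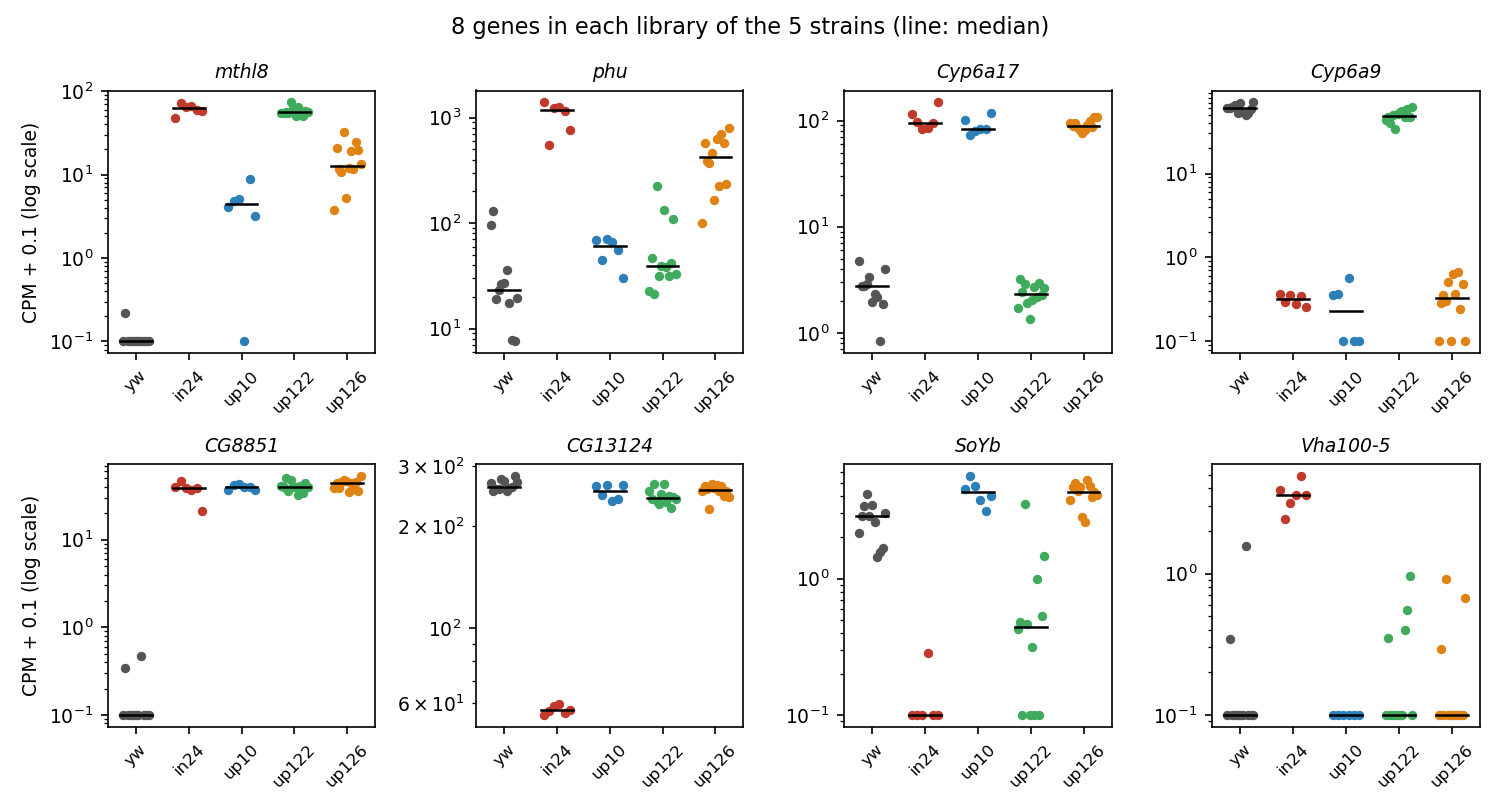
Level of 8 genes in each library of the 5 strains (CPM + 0.1, log scale; points are libraries, lines are medians). *CG13124* separated *tim_in24* from all other strains, *CG8851* separated *yw* from all others, and *Cyp6a17* and *Cyp6a9* put *tim_up122* with *yw* and *tim_up10* and *tim_up126* with *tim_in24*.

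Cytochrome P450 enzymes oxidize insecticides, plant toxins, hormones and lipids. Of 78 tested, 22 were higher and 26 lower (61.5%, against 25.5% of all genes), with a median log2 fold change of -0.09 against -0.03 for all genes. The direction was thus split and the range wide. At 1 cluster on 2R, 3 genes within 7.42 kb moved in opposite directions. *Cyp6a17*, linked in flies to temperature preference, had 83.5, 94.9 and 148 CPM in *tim_in24* and 0.73, 2.67 and 4.64 CPM in *yw* (5.57 ± 0.11, adjusted p = 1.05e-21). *Cyp6a9* had 0.158, 0.223 and 0.271 CPM in *tim_in24* and 49.1, 59.99 and 70.1 CPM in *yw*, 6 against 4403 counts (ratio 285, interval 131 to 777). *Cyp6a19*, which overlaps *Cyp6a9* by 397 bases, summed to 3 counts in *tim_in24* and 939 in *yw* (ratio 122, interval 41.5 to 590). These genes are close relatives, and reads that match several of them may have been split or dropped in counting. In *tim_up122* the same 3 genes had the *yw* pattern, with *Cyp6a17* at 1.25 to 3.14 CPM and *Cyp6a9* at 33.9 to 61.9 CPM, while in *tim_up126* *Cyp6a17* was at 76.8 to 107 CPM.

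The adjoining pair *Cyp4p1* and *Cyp4p2* also moved apart. *Cyp4p1* had 179, 210 and 238 CPM in *tim_in24* and 37.2, 54.8 and 94.1 CPM in *yw* (1.91 ± 0.06), and *Cyp4p2* had 10.9, 12.4 and 16.3 against 66.7, 87.6 and 134 CPM (-2.86 ± 0.11). *Cyp6g1* and *Cyp6a2*, both known for insecticide resistance when overexpressed and chosen after their values were seen, were lower, at 13.5, 20.7 and 48.5 against 161, 267 and 437 CPM (-3.50 ± 0.17) and at 36.4, 45.6 and 50.5 against 204, 293 and 363 CPM (-2.63 ± 0.10). The ranges of the strains were apart for all 4 genes. Against the upstream strains *Cyp6g1* had a difference of -0.82 and *Cyp6a2* one of 0.51 (adjusted p = 0.000569 and 0.000338).

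Glutathione S-transferases join glutathione to reactive compounds, and 9 of 33 were higher (27.3%, against 12.3% of all genes) and 6 lower (18.2%, against 13.1%). *GstE1* had 57.3, 78.2 and 87.7 CPM in *tim_in24* and 22.9, 33.8 and 48.2 CPM in *yw* (1.16 ± 0.08), and *GstE11* was also higher (1.09 ± 0.09). *GstE4* (-2.65 ± 0.34) and *GstE5* (-1.48 ± 0.17), in the same cluster on 2R, were lower. Without the *tim_in24* ZT6 library 3 of the family were lower. *GstE1* stood 1.54 above the mean of the upstream strains, with *tim_up10* at 2.52 to 4.98 CPM and the other 2 strains at 50.6 to 106 CPM. Among UDP-glycosyltransferases, which attach sugars to small molecules, 1 of 19 was higher (5.26%, against 12.3% of all genes) and 4 lower (21.1%, against 13.1%). In either direction together the share was 26.3%, near the 25.5% of all genes. *Ugt36E1* rose (1.46 ± 0.11) and *Ugt37B1* fell by 4.02 ± 0.35 on the log2 scale, from 8.44, 10.5 and 16.8 CPM in *yw* to 0, 1.3 and 2.71 CPM.

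**Figure D3:**
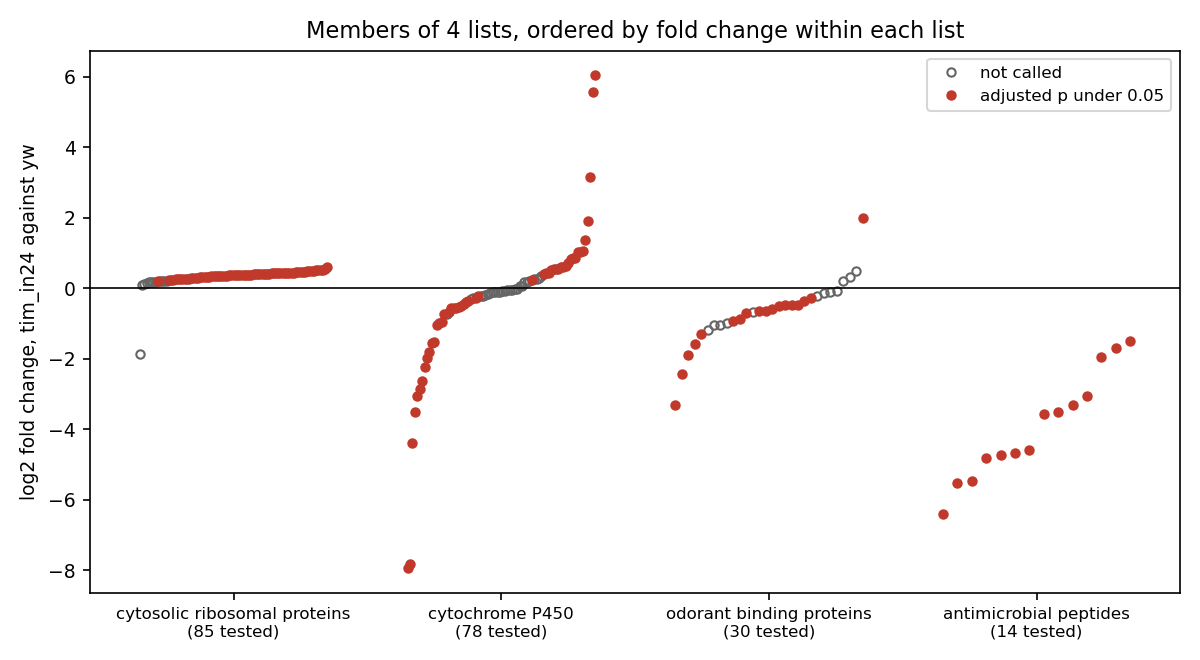
Log2 fold change of *tim_in24* against *yw* for each tested member of 4 gene lists, in order within each list (filled, adjusted p under 0.05; open, not called). The antimicrobial peptides ran from -6.41 to -1.50, the called ribosomal protein genes from 0.20 to 0.61, and the P450 genes from -7.94 to 6.03.

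Antimicrobial peptides are secreted by the fat body into the hemolymph when the Toll or Imd pathway senses microbes. All 14 tested were lower in *tim_in24* (13.1% of all genes were lower), with a median log2 fold change of -4.08. The ranges were apart for 9 of the 14 (3.16% of all genes), and 12 were below the *yw* mean at each of the 6 time points. *DptA*, a diptericin that marks Imd signalling, had 1.01, 1.31 and 26.3 CPM in *tim_in24* and 29.7, 61.0 and 398 CPM in *yw* (-5.46 ± 0.96, adjusted p = 1.10e-04). Its *yw* libraries varied among themselves, with 5 at 248 CPM or more, all at ZT2, ZT6 or ZT10, and the other 6 at 61.0 CPM or less. The highest *tim_in24* value came from ZT6.

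Other classes of peptide moved the same way. *AttB*, an attacin, had 2.17, 5.72 and 10.6 CPM in *tim_in24* and 31.3, 42.9 and 143 CPM in *yw* (-3.57 ± 0.47), and *Def*, a defensin, had 8.42, 19.6 and 30.9 against 45.8, 68.4 and 111 CPM (-1.95 ± 0.19, adjusted p = 1.79e-08). *DptB* (-4.59 ± 0.72), the cecropin *CecA1* (8 against 897 counts, ratio 43.5, interval 22 to 101) and the drosocin gene *Dro* (-3.32 ± 0.71) were lower too. *AttC* (-3.50 ± 0.69), *Mtk* (-3.06 ± 0.54) and *Drs* (-1.50 ± 0.45, adjusted p = 0.0155), named after their values were seen, complete the classes. *Drs*, the drosomycin gene of the Toll pathway, and *AttA*, named after its values were seen, each went the other way at 1 time point. *AttA* (-1.70 ± 0.38) had 44.7 CPM in *tim_in24* at ZT14 and 29.96 and 25.1 CPM in the *yw* pair. For *Drs*, at ZT6 *tim_in24* had 164 CPM and the *yw* pair 104 and 143 CPM. *Drs* lost its call without *yw* ZT18 replicate 1, or without the *tim_in24* library of ZT18 or of ZT22 (adjusted p = 0.0534, 0.0536 and 0.0545). Each of these takes its time point out of the average, so the 2 fits without a ZT18 library are nearly the same contrast. The closely related attacins and cecropins may share reads. Against the upstream strains 1 of the 14 was called (7.14%, against 9.81% of all genes), *Def* (-0.55, adjusted p = 0.0488), while *DptA* had medians of 9.19, 5.27 and 2.80 CPM there and a difference of -1.60 (adjusted p = 0.489). Summed markers of the fat body, the tissue that makes these peptides, were at 56356 to 73719 CPM in *tim_in24* and 29864 to 71248 CPM in *yw*. Of its 7 tested markers 2 were higher and 2 lower (28.6% each, against 12.3% and 13.1% of all genes). The 4 female markers, *Yp1*, *Yp2*, *Yp3* and *fit*, are among the 7 and made up most of the sum. Their median was 56684 of 62235 CPM in *tim_in24* and 47800 of 53435 CPM in *yw*. The sum thus mainly follows these genes and does not measure the amount of fat body. Fewer cells of a type and less RNA per cell cannot be told apart in whole heads.

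**Figure D4:**
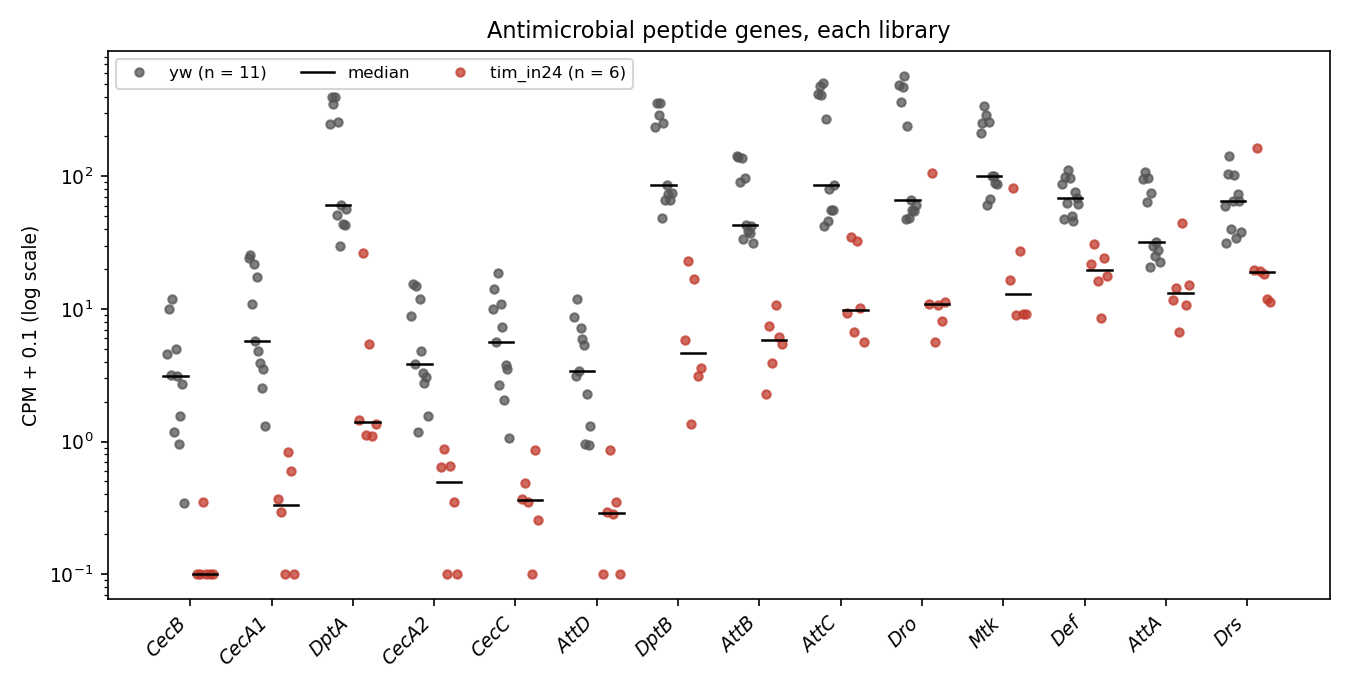
Level of the 14 antimicrobial peptide genes in each *yw* (grey, 11) and *tim_in24* (red, 6) library (CPM + 0.1, log scale; lines are medians), in order of log2 fold change. Every *tim_in24* median was below the *yw* median, and the *tim_in24* library at ZT6 was the highest of its strain for *DptA* and *Drs*.

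Bomanins and other immune-induced molecules, short secreted peptides of the Toll response, went both ways. Of 16 tested, 8 were higher (50%, against 12.3% of all genes) and 3 lower (18.8%, against 13.1%), with a median of 0.38. *IM23* had 36.1, 51.2 and 120 CPM in *tim_in24* and 3.15, 6.13 and 27.6 CPM in *yw* (3.0 ± 0.24, adjusted p = 6.01e-10), with no overlap. *CG16836* (1.0 ± 0.12), *IM3* (0.78 ± 0.12) and *IM2* (0.77 ± 0.14) were higher with smaller steps. *IM18*, the lowest of the list and named after its values were seen, had a log2 fold change of -4.39 ± 0.87 and counts identical to those of *CG10332* in every library, so the 2 are 1 measurement.

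Peptidoglycan recognition proteins sense bacterial cell walls or cut them, and 5 of 10 were lower (50%, against 13.1% of all genes) and 1 higher (10%, against 12.3%). *PGRP-SD* (-1.36 ± 0.18), *PGRP-SB1* (-1.44 ± 0.20) and *PGRP-LB*, an amidase that dampens Imd signalling (-0.74 ± 0.12), were lower, and *PGRP-LD* was higher (0.39 ± 0.08). *NimC1*, the phagocytosis receptor of blood cells, had 36.1, 38.8 and 47.8 CPM in *tim_in24* and 4.13, 5.97 and 7.80 CPM in *yw* (2.81 ± 0.14, adjusted p = 5.99e-14). Of 6 tested markers of blood cells, 2 were higher (33.3%, against 12.3% of all genes), *NimC1* included, and none was lower. The summed level was 450 to 531 CPM against 430 to 519 CPM. *NimC1* differed from the upstream mean by -0.09 and was not called there.

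Turandot genes encode secreted stress peptides, and 3 of 4 were lower (13.1% of all genes were). *TotX* had 1.10, 1.70 and 3.80 CPM in *tim_in24* and 10.2, 20.8 and 46.1 CPM in *yw* (-3.34 ± 0.42), and differed from the upstream mean by -2.32 (adjusted p = 0.000555). *TotA* (-1.46 ± 0.41) and *TotC* (-2.02 ± 0.54) lost their calls without the *tim_in24* ZT6 library (adjusted p = 0.0626 and 0.0521). Among heat shock proteins, the chaperones of protein folding, 9 of 15 were lower (60%, against 13.1% of all genes) and 1 higher (6.67%, against 12.3%). *Hsp22* had 6.51, 10.4 and 16.5 CPM against 10.9, 31.6 and 142 CPM (-2.12 ± 0.24) and *Hsp23* had 10.4, 15.9 and 17 against 17.8, 24.3 and 30.4 CPM (-0.71 ± 0.13). *Hsp83*, the most abundant of them, was the 1 that was higher (0.21 ± 0.06, adjusted p = 0.00852), with overlapping ranges. It lost its call without the *tim_in24* ZT14 library (adjusted p = 0.0642), and also with library totals in place of TMM factors.

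Odorant binding proteins are small carriers in the fluid around sensory neurons. Of 30 tested, 17 were lower (56.7%, against 13.1% of all genes) and 1 was higher (3.33%, against 12.3%), with a median of -0.62. *Obp56d*, among the more abundant, had 348, 384 and 458 CPM in *tim_in24* and 780, 982 and 1127 CPM in *yw* (-1.29 ± 0.09, adjusted p = 5.76e-11), and *Obp19d*, the most abundant, had 786, 1015 and 1200 against 1288, 1669 and 2070 CPM (-0.70 ± 0.11). The groups did not overlap for either. *Obp56a* was lowest by fold, at 2.53, 4.81 and 8.51 against 26.1, 43.3 and 68.1 CPM (-3.31 ± 0.23), and *Obp99b* was lower by -1.89 ± 0.27 with overlapping ranges. Against the upstream strains 2 of the 30 were called (6.67%, against 9.81% of all genes). *Obp99a*, named after its values were seen, was 1 of them (-2.40, adjusted p = 0.000246), whereas *Obp56a* and *Obp56d* had differences of -0.04 and -0.06. Among receptors for odours and tastes 10 of 55 were lower and 3 higher (23.6%, against 25.5% of all genes), and without the *tim_in24* ZT14 library 6 were lower. *Ir85a*, an ionotropic receptor, had 8.55, 18 and 22.5 CPM in *tim_in24*, below both *yw* (26.2, 39.1 and 45.4 CPM) and the upstream strains (-1.30, adjusted p = 1.47e-07).

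Genes for cytosolic ribosomal proteins, which build the ribosome, rose together by a small amount. Of 85 tested, 70 were higher (82.4%, against 12.3% of all genes) and none lower, with a median log2 fold change of 0.37. The ranges were apart for 65, all of them higher (3.8% of all genes). *RpL4* had 1248, 1518 and 1627 CPM in *tim_in24* and 836, 973 and 1057 CPM in *yw* (0.61 ± 0.09, adjusted p = 1.41e-05), and *RpL3* had 1689, 1782 and 1925 against 1135, 1348 and 1430 CPM (0.43 ± 0.09). Every *tim_in24* library was above every *yw* library for both. *RpL6* (0.52 ± 0.08) and *RpS13* (0.43 ± 0.06) had similar steps. *RpL32*, often used as a reference gene, had 560, 619 and 707 CPM against 467, 520 and 562 CPM and did not pass the test (0.27 ± 0.10, adjusted p = 0.0619). With library totals in place of TMM factors 63 were higher, and over all 28 alternatives the count ran from 61 to 82 with none lower. Against the upstream strains 15 of the 85 were called (17.6%, against 9.81% of all genes).

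Nuclear genes for the respiratory chain had 26 of 68 members higher (38.2%, against 12.3% of all genes) and none lower, with a median of 0.18. *ATPsynC* (0.32 ± 0.05) and *ATPsynbeta* (0.24 ± 0.05), both subunits of ATP synthase, had overlapping ranges. The count was 16 without the *tim_in24* library of ZT2 or ZT6, 17 without that of ZT22, 10 with library totals and 48 in the additive model of 17 libraries, with none lower in any of these. Mitochondrial ribosomal proteins (7 higher and 3 lower of 73, 13.7%) and proteasome subunits (1 lower of 34, 2.94%) were below the 25.5% of all genes. With library totals the first had 3 higher and 5 lower and the second 6 lower, and without the *tim_in24* ZT2 library no mitochondrial ribosomal protein gene was lower. *mRpL27*, 1 of the 7, had 34.6, 39.6 and 49.5 CPM in *tim_in24* and 9.74, 12.4 and 19.0 CPM in *yw* (1.64 ± 0.08), and *Prosalpha4* was the proteasome subunit that was lower (-0.74 ± 0.08).

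Amylases and maltases digest starch and sugars, and 3 of 12 were higher and 3 lower (25% each, against 12.3% and 13.1% of all genes). With library totals 5 were lower. The maltases *Mal-B1* (8.70, 14.5 and 17.5 against 1.29, 1.94 and 3.30 CPM, 2.84 ± 0.18) and *Mal-B2* (247, 270 and 282 against 116, 142 and 176 CPM, 0.91 ± 0.08) were higher. The near-identical amylase copies *Amy-d* (15.4, 20.4 and 24.6 against 105, 131 and 186 CPM, -2.73 ± 0.15) and *Amy-p* (-2.83 ± 0.20) were lower, and reads may be shared between them. *Mal-B2* and *Amy-d* also differed from the upstream mean, by 0.71 and -1.12 (adjusted p = 6.98e-08 and 3.43e-06).

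For lipid synthesis and storage 7 of 19 genes were higher (36.8%, against 12.3% of all genes) and 3 lower (15.8%, near the 13.1%). The perilipins *Lsd-1* (0.76 ± 0.13) and *Lsd-2* (378, 495 and 546 against 242, 271 and 371 CPM, 0.77 ± 0.09) coat lipid droplets, *mdy* makes triglyceride (0.93 ± 0.11) and *Desat1* desaturates fatty acids (0.50 ± 0.10). All 4 were higher, and of them only *Lsd-2* had ranges apart. Of 16 genes of insulin, adipokinetic hormone and FOXO signalling, 6 were higher (37.5%, against 12.3% of all genes) and 3 lower (18.8%, against 13.1%). *Ilp3*, an insulin-like peptide of brain neurons, had 32.2, 34.9 and 39.9 CPM in *tim_in24* and 12.0, 18.7 and 29.99 CPM in *yw* (0.85 ± 0.14, adjusted p = 3.21e-05), and was 0.93 above the upstream mean (adjusted p = 4.62e-06). *tobi*, a glucosidase gene that responds to brain insulin, was higher by 3.44 ± 0.49, at 1.58, 6.07 and 17.6 against 0.121, 0.433 and 1.21 CPM. *AkhR*, the receptor for the hormone that mobilizes stored fat (0.75 ± 0.11), and *Thor*, the translation inhibitor 4E-BP (0.55 ± 0.13), were also higher. *fit*, a fat body gene induced by protein feeding and more active in females, had 93.1, 127 and 187 CPM against 299, 667 and 1319 CPM (-2.27 ± 0.29). Beside it, the yolk protein gene *Yp1*, a female marker, was higher (0.55 ± 0.15), and *roX2*, an RNA of male dosage compensation listed as *lncRNA:roX2*, was lower (-0.81 ± 0.18). Of 4 female markers 1 was higher and 1, *fit*, lower (25% each, against 12.3% and 13.1% of all genes). Of 3 male markers 1 was lower (33.3%, against 13.1%) and none higher. Summed female markers were at 45089 to 67202 CPM in *tim_in24* and 25589 to 64035 CPM in *yw*. Summed male markers were at 473 to 1342 CPM in *tim_in24* and 512 to 1235 CPM in *yw*. Whether the share of females moved with these genes was not tested.

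Genes of phototransduction, the cascade that turns light into a voltage in photoreceptors, had 10 of 19 members higher (52.6%, against 12.3% of all genes) and 3 lower (15.8%, near the 13.1%), with a median of 0.18. *Arr2*, the arrestin that stops rhodopsin, had 10278, 11640 and 15683 CPM in *tim_in24* and 4827, 8245 and 12461 CPM in *yw* (0.56 ± 0.09, adjusted p = 5.94e-05). The kinase *inaC* (0.61 ± 0.07) and the scaffold *inaD* (0.53 ± 0.09) were higher at all 6 time points, with ranges that overlapped. Among 7 rhodopsins, 5 were higher (71.4%) and none lower, *Rh5* by 0.36 ± 0.07. Without the *tim_in24* ZT22 library 2 were higher, and with library totals, or without the *tim_in24* ZT2 library, 3. Summed photoreceptor markers were at 49677 to 57892 CPM in *tim_in24* and 34928 to 50720 CPM in *yw*. Of the 7 markers, 4 were higher (57.1%, against 12.3% of all genes) and none was lower. *Arr2* is among these markers and is also counted under phototransduction, and the marker *ninaE* is itself a rhodopsin gene. The counts of these lists are therefore not separate observations. The part of the markers in these values was not tested. Of 7 muscle markers, 3 were higher and 3 lower (42.9% each, against 12.3% and 13.1% of all genes). *Act57B* (0.77 ± 0.07), *Mlc2* (0.70 ± 0.06) and *up* (0.61 ± 0.06) were higher. *Mhc* (-0.37 ± 0.06), *sls* (-0.46 ± 0.10) and *Act88F* (-1.76 ± 0.40) were lower, the last 2 named after their values were seen. *Act88F* was at 28.7 and 26.1 CPM in the close to identical libraries, *yw* ZT18 replicate 1 and *yw* ZT22 replicate 1. The other *yw* libraries had 1.51 to 9.51 CPM, which overlaps the 1.10 to 5.56 CPM of *tim_in24*.

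Monoamine genes had 2 of 14 members higher (14.3%, near the 12.3% of all genes) and 4 lower (28.6%, against 13.1%). *Hdc*, which makes histamine, the transmitter of photoreceptors, was higher (0.50 ± 0.05), and *Ddc*, which makes dopamine and serotonin, had 235, 248 and 275 CPM in *tim_in24* and 345, 393 and 463 CPM in *yw* (-0.63 ± 0.06, adjusted p = 5.73e-09). Without the *tim_in24* ZT22 library 1 monoamine gene was lower, and without *yw* ZT22 replicate 1, or any of 6 other libraries left out singly, there were 2. Of 22 pigment genes 4 were higher and 4 lower (18.2% each, not far above the 12.3% and 13.1% of all genes). With library totals, or without the *tim_in24* ZT22 library, 2 were higher, and 2 were lower when any of 8 single libraries was left out. The lower ones included *yellow-c* (62.6, 65.8 and 76.3 against 94.3, 123 and 156 CPM, -0.77 ± 0.08) and *yellow-b* (-0.92 ± 0.09), relatives of *yellow*, the gene of black pigment. Of 29 neuropeptide genes 5 were higher (17.2%, against 12.3% of all genes) and 9 lower (31%, against 13.1%). With library totals 14 were lower, without the *tim_in24* ZT2 library 4, and without that of ZT6 or ZT14 or *yw* ZT6 replicate 2, 5. The diuretic peptide genes *Dh44* (117, 125 and 128 against 90.0, 102 and 108 CPM, 0.30 ± 0.05) and *Capa* (0.52 ± 0.06) were higher, as were *Nplp2* (0.44 ± 0.10) and *Nplp4* (1.59 ± 0.20). None of the 9 lower neuropeptide genes is named here, so these examples do not show the main direction of the list. Neuron markers had no member called of 7.

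**Figure D5:**
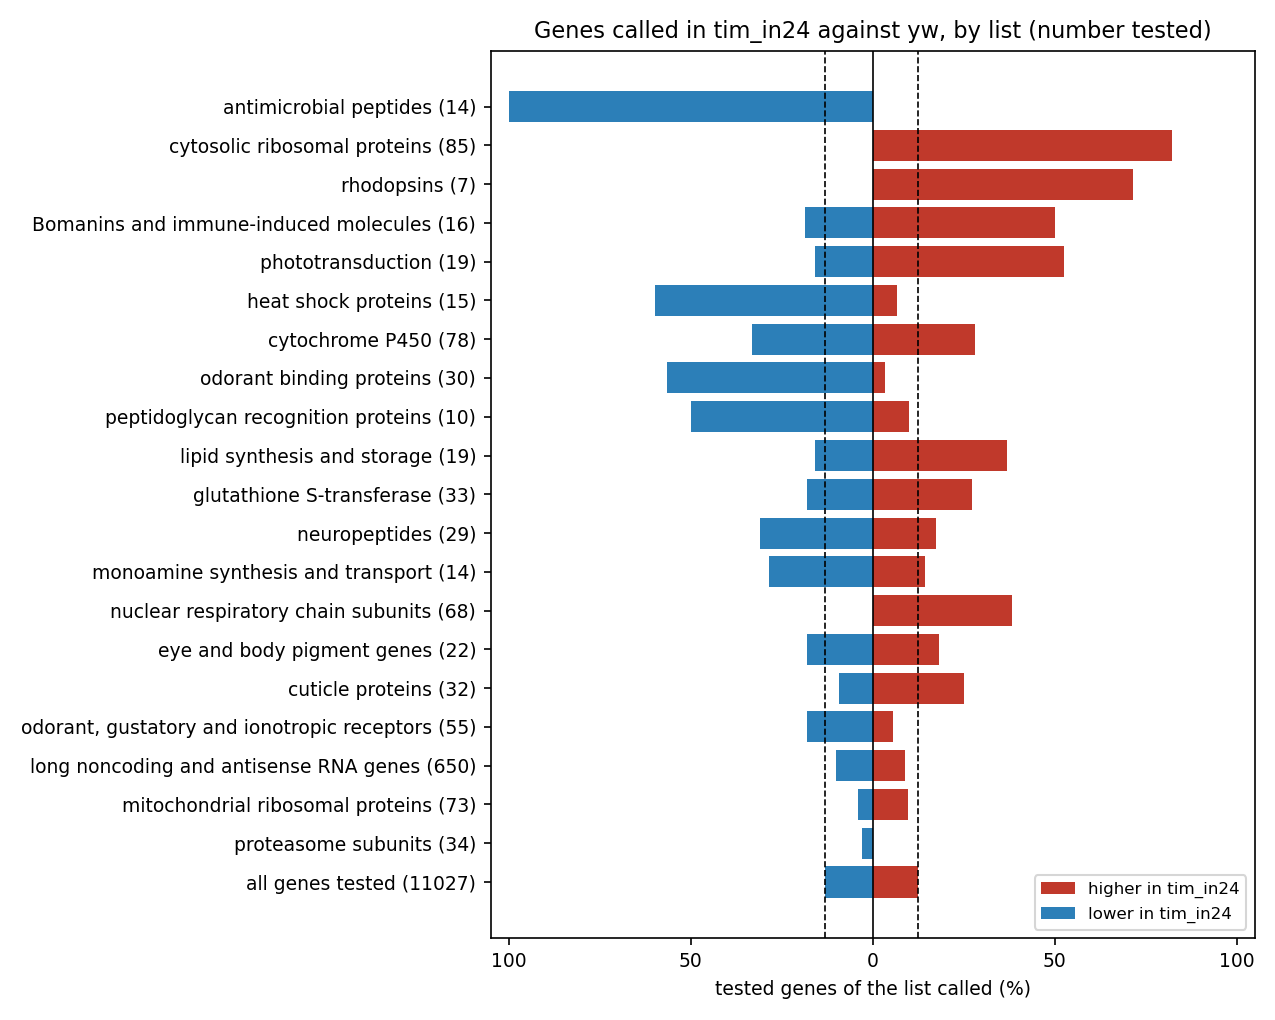
Share of tested members of each gene list called higher (red, right) or lower (blue, left) in *tim_in24* than in *yw*, in percent; the number tested is in brackets and dashed lines mark all genes tested. The antimicrobial peptides reached 100% lower and the ribosomal protein genes 82.4% higher, while proteasome subunits were at 2.94%.

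The difference between the strains was set against the light cycle by contrasting its mean at ZT14, ZT18 and ZT22 with its mean at ZT2, ZT6 and ZT10. edgeR called 9 of 11027 genes (0.0816%), 3 with a larger (0.0272%) and 6 with a smaller value in the dark (0.0544%), and 944 had an unadjusted p under 0.05. *CG42367* carried the widest change (-3.03 ± 0.55, adjusted p = 0.0209). In *yw* it was at 0.0999 to 2.23 CPM in the light and 8.54 to 20.9 CPM in the dark, and in *tim_in24* at 0.774 to 2.53 and 1.46 to 6.65 CPM. The rise after lights off was thus smaller in *tim_in24*. *CG17211* had the opposite sign (1.35 ± 0.18), with 12.6 to 29.96 CPM in the dark in *yw* and 36.1 to 69.4 CPM in *tim_in24*. Its levels in the light are not given here, so these dark levels alone do not show the change. The dark *yw* libraries include the close to identical pair, and without *yw* ZT22 replicate 1 there were 2 and 6 called genes. Without *yw* ZT22 replicate 2 there were 28 and 29.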

How the data were processed

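The authors deposited a table of read counts per gene for 47 libraries of fly heads, with 17137 genes, and the labels name the genome build dm6 and the tools STAR, SAMtools, featureCounts and DESeq2, whereas the methods name other software; the strand setting is not given in the sources used here. A second, normalised table was not used. Library totals were 1761896 to 10230355 counts, and floors and intervals cover counting error only.

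Differences were tested by the quasi-likelihood method of edgeR 4.0.16 under R 4.3.3, with TMM factors, the filterByExpr filter and Benjamini-Hochberg adjustment over the 11027 genes kept (threshold 0.05). The model had 1 coefficient per strain and time point, fitted over all 47 libraries with 17 residual degrees of freedom; the day contrast averages 6 time points. An exact two-sided permutation of strain labels within time points (486 splits, smallest possible p 0.00206) was run for the named genes; since most were chosen as already called, it adds no support and is not quoted. Fold changes are on the log2 scale. The SE beside each was derived from the same test, as the absolute fold change divided by the square root of its F statistic. It is therefore approximate and not a separate estimate of spread, above all for genes near 0 in 1 strain. The paper calls its RNA sequencing replicates biological but does not say whether each came from a separate collection of flies. The p-values therefore measure the spread between libraries.

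Annotation came from BDGP6.54; 16293 symbols matched by name, 770 by synonym and 74 did not. Among tested genes, 210 share identical counts with another gene. In simulated counts for 11027 genes, 43 of 50 genes raised 2-fold over the day and 41 of 50 raised 1.4-fold were called, with 17 false calls among all genes. The simulation gave all genes the same dispersion (0.0127), no change over the day and independent libraries. Real genes differ in spread and 2 *yw* libraries are close to identical, so these counts are not error rates of the real tests. DESeq2 1.42.0, other scalings, filters, sample sets and models, and leaving out each library were tried as alternatives. Leaving out a *tim_in24* library, or the only *yw* library of ZT18, also takes that time point out of the day average.

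The genes, lists and tests were chosen with earlier results of these data known. Named genes were the 15 highest and 15 lowest by fold, the 5 smallest p values, up to 4 per list with its most abundant member, up to 8 near *tim* and 3 per direction in the other contrasts, from which the text gives a selection; genes chosen after their values were seen are marked.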

Additional observations from a re-analysis of the deposited data

Results flagged for a closer look

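For 9 genes the difference between *tim_in24* and *yw* changed between the light and the dark phase by a test of that change itself (edgeR, adjusted p under 0.05 over all genes tested). The value is the mean log2 difference at ZT14, ZT18 and ZT22 minus that at ZT2, ZT6 and ZT10. It was above 0 for *CG17211* (1.35, adjusted p = 0.00159), *Cyp4p1* (0.69) and *CG32368* (1.56). It was below 0 for *Usp8* (-1.45), *CG46385* (-0.74), *CG3630* (-0.63), *CG42367* (-3.03), *CG17005* (-1.32) and *CG2681* (-1.05). The P450 gene *Cyp4p1* is the only one of these 9 that the report describes over the day together with its family. *Usp8*, a deubiquitinase, had 58.6, 145 and 318 CPM at ZT2, ZT6 and ZT10 and 156, 81.8 and 43.8 CPM at ZT14, ZT18 and ZT22 in *tim_in24*, and 51.4 to 251 CPM over the *yw* libraries in the dark. The *yw* levels of *Usp8* in the light are not given here, so these levels alone do not show the change. *CG32368* was at 2.71 to 6.79 CPM in the light and 6.06 to 8.79 CPM in the dark in *tim_in24*, and at 6.46 to 16.2 and 4.36 to 9.49 CPM in *yw*. *CG32368*, *CG17005* and *CG2681* lost their calls without the 3 *yw* libraries that stand apart (adjusted p = 0.118, 0.214 and 0.168), a choice made after seeing the data.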

How the results depend on the processing

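Over the day, 1361 genes were higher and 1447 lower. With library totals in place of TMM factors 1028 were higher and 2359 lower, which moves the split towards lower calls, and the median log2 fold change of all genes went from -0.03 to -0.10. Leaving out 1 library at a time gave 1175 to 1407 higher and 1157 to 1426 lower. No pairing of *tim_in24* with *yw* was possible, since *tim_in24* has 1 library per time point; a replicate block over all libraries gave 1296 and 1431, and for the phase contrast 7 and 9. That contrast (3 and 6) gave 172 and 84 with no filter on low counts, 5 and 17 with DESeq2, 1 and 1 without ZT22 in the average, and 1 to 28 and 1 to 29 when 1 library was left out, so it depends on single libraries. Against the upstream strains 584 were higher and 498 lower, with 298 lower without ZT22 and 303 to 499 when 1 library was left out (394 to 586 higher). *tim* had no call under any setting and changed sign in several: 0.0059 in the additive model of 17 libraries, 0.16 without ZT22, -0.22 to 0.16 over the libraries left out in turn, and 0.18 without the 3 *yw* libraries, a set chosen after seeing the data. Of the 104 called genes described over the day, 98 kept call and direction in every 1 of the 28 alternatives that tested them, none reversed, and 6 lost a call in at least 1. A gene that an alternative filtered out, or gave no adjusted p, was not counted as lost there. The antimicrobial peptides had 13 or 14 lower and the ribosomal protein genes 61 to 82 higher, with none the other way. Levels under 1 CPM, such as those of *aurB* and *SoYb*, rest on a few counts.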
